A study of Homo sapiens with 6 samples.

Results

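Transcripts of 33 genes that carry out nucleotide excision repair, base excision repair and mismatch repair were compared between metformin-treated and PBS-treated CAL27 cells. CAL27 is an established squamous carcinoma line of the human tongue. The 33 genes were chosen by name, as 17 genes of nucleotide excision repair, 10 of base excision repair and 6 of mismatch repair, among 58243 genes with a value in every library. Of the 33, 32 averaged at least 1 FPKM (sequenced fragments scaled by transcript length and by library depth) over the 6 libraries and entered the test, among 13437 genes tested. OGG1, at 0.906 FPKM, did not.

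The treated group held 3 libraries from cells given 30 mM metformin, a biguanide drug for diabetes, for 48 h. The control group held 3 libraries from cells given PBS, the vehicle, for the same time. The study asked how metformin sensitises head and neck squamous carcinoma cells to chemotherapy. Both groups grew in serum-containing high-glucose medium, no cytotoxic drug was part of either group, and 1 cell line, 1 dose and 1 time were measured. Whether the 3 libraries of a group stem from independent cultures is not stated, and each p-value rests on how far these libraries scattered, which could be technical scatter only.

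Nucleotide excision repair cuts out a short stretch of strand around bulky damage such as UV photoproducts and platinum adducts. Base excision repair replaces single damaged or foreign bases, among them uracil and oxidised guanine, through a glycosylase, a nick at the abasic site, a polymerase and a ligase. Mismatch repair corrects mispaired bases left by the replication fork, and its proteins also bind some drug lesions. All 3 pathways finish by resynthesis and ligation, in part with enzymes that the replication fork also uses.

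The libraries were of similar depth, with 7810000 to 8820000 fragments estimated from the spacing of the lowest values. Libraries correlated at 0.974 to 0.979 within a group and at 0.881 to 0.888 between groups. All 7 epithelial markers reached 1 FPKM, and their sum was 481 to 520 FPKM in metformin libraries against 991 to 1040 FPKM in PBS libraries. Of the other lineages, 1 of 6 fibroblast, 1 of 5 leukocyte and 1 of 4 endothelial markers reached 1 FPKM, namely COL1A1, CD68 and CDH5. DCN and KDR were listed at 0 in every library, as were all 37 mitochondrial genes, which every cell uses, so a 0 in these files need not mean absence. Their summed levels were 2.49 to 2.74 FPKM in metformin libraries against 1.54 to 2.34 FPKM in PBS libraries for the fibroblast list, 3.43 to 5.09 FPKM with metformin against 2.31 to 3.23 FPKM with PBS for the leukocyte list, and 2.01 to 2.32 FPKM with metformin against 5.93 to 6.87 FPKM with PBS for the endothelial list. The part of these markers in the repair results was not tested.

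With metformin, repair transcripts moved in both directions, and the direction differed between members of the same complex. Of the 32 tested genes 7 rose and 9 fell, by limma at a Benjamini-Hochberg adjusted p under 0.05 over all tested genes. The response to metformin was broad: 56.2% of all tested genes passed, 31.0% higher and 25.2% lower. The excess of higher calls depended on the scaling, with 3745 genes higher and 3750 lower under median-of-ratios scaling and 3645 higher and 3811 lower under quantile normalization. The members were then 7 higher and 12 lower, and 6 higher and 13 lower. The 16 of 32 members that passed, 50%, are therefore a share near the background. The median log2 change was -0.10 over the members and 0.06 over all tested genes, all changes being differences of log2(FPKM + 1), which understate the change of low genes. The 3 libraries of each group did not overlap for 20 members, against 64.4% of all tested genes; 8 were higher and 12 lower with metformin, against 35.7% and 28.7% of all genes. XPC alone among the members changed by 1 or more in log2, while 11.3% of all tested genes passed the test with a change of that size. In bulk RNA, fewer cells of a kind and less RNA per cell cannot be told apart.

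Nucleotide excision repair had 6 members higher, 3 lower and 8 not past the threshold, with a median log2 change of 0.17. In base excision repair 0 rose, 4 fell and 5 of 9 tested genes did not pass (median -0.30). In mismatch repair 1 rose, 2 fell and 3 did not pass (median -0.07). In nucleotide excision repair 35.3% were thus higher and 17.6% lower, against 31.0% and 25.2% of all tested genes. The shares were 0% and 44.4% in base excision repair and 16.7% and 33.3% in mismatch repair. The shares called, 52.9%, 44.4% and 50%, were not above the 56.2% of all tested genes. The number called therefore shows nothing particular to a pathway. At an unadjusted p under 0.05, by limma, the counts higher and lower were 7 and 3 in nucleotide excision repair, 0 and 5 in base excision repair and 1 and 2 in mismatch repair, against 4562 higher and 3688 lower of all 13437 tested genes. Levels spanned a wide range: RAD23B averaged 111 FPKM over the 6 libraries, at the 98.3rd percentile of tested genes, followed by APEX1 at 87.9 FPKM and PARP1 at 47.7 FPKM, and MLH3 was the lowest tested member at 1.86 FPKM.

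**Figure D1:**
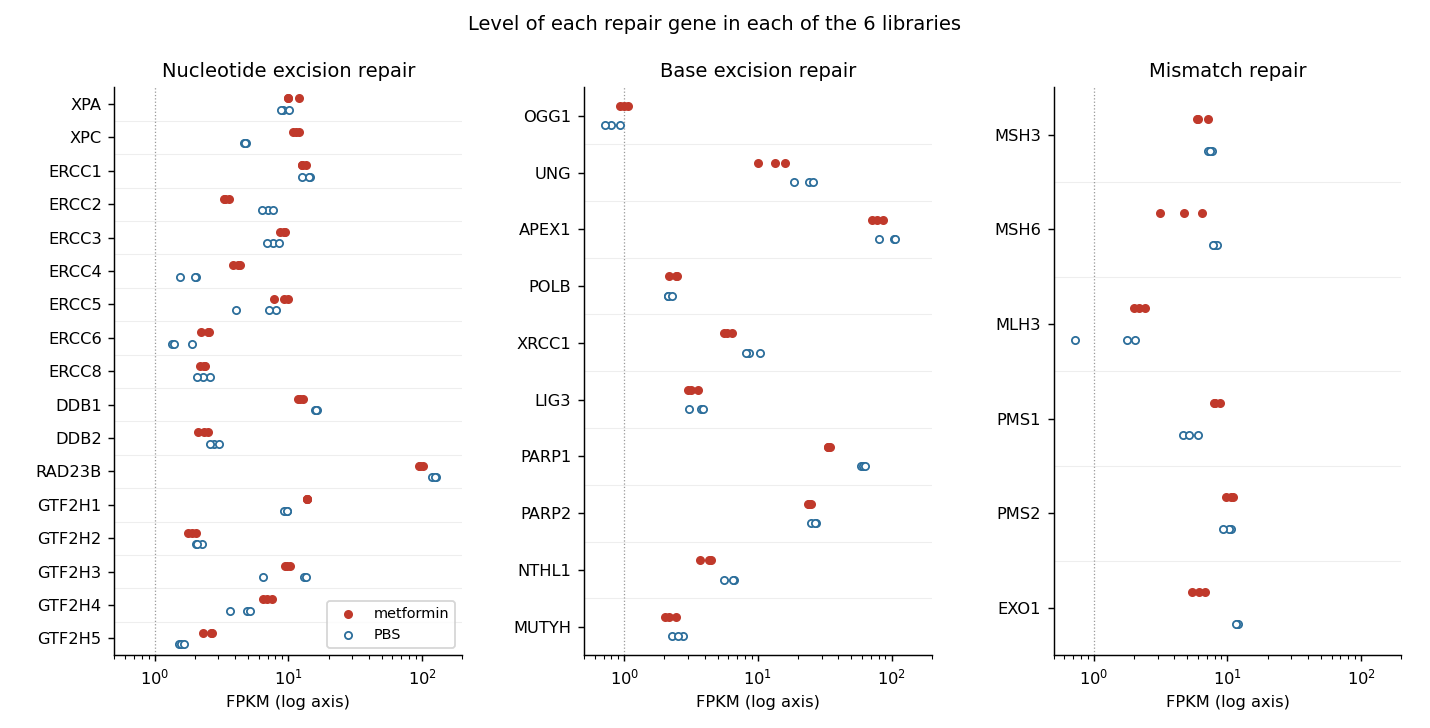
Each point is 1 library, with FPKM on a log axis, for the 33 genes in 3 panels by pathway; filled points are metformin libraries and open points PBS libraries, and the dotted line marks 1 FPKM. XPC, ERCC4 and PMS1 show metformin points to the right of all PBS points, ERCC2, PARP1 and EXO1 show them to the left, and PBS libraries are widely spread for ERCC5, GTF2H3 and MLH3.

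**Figure D2:**
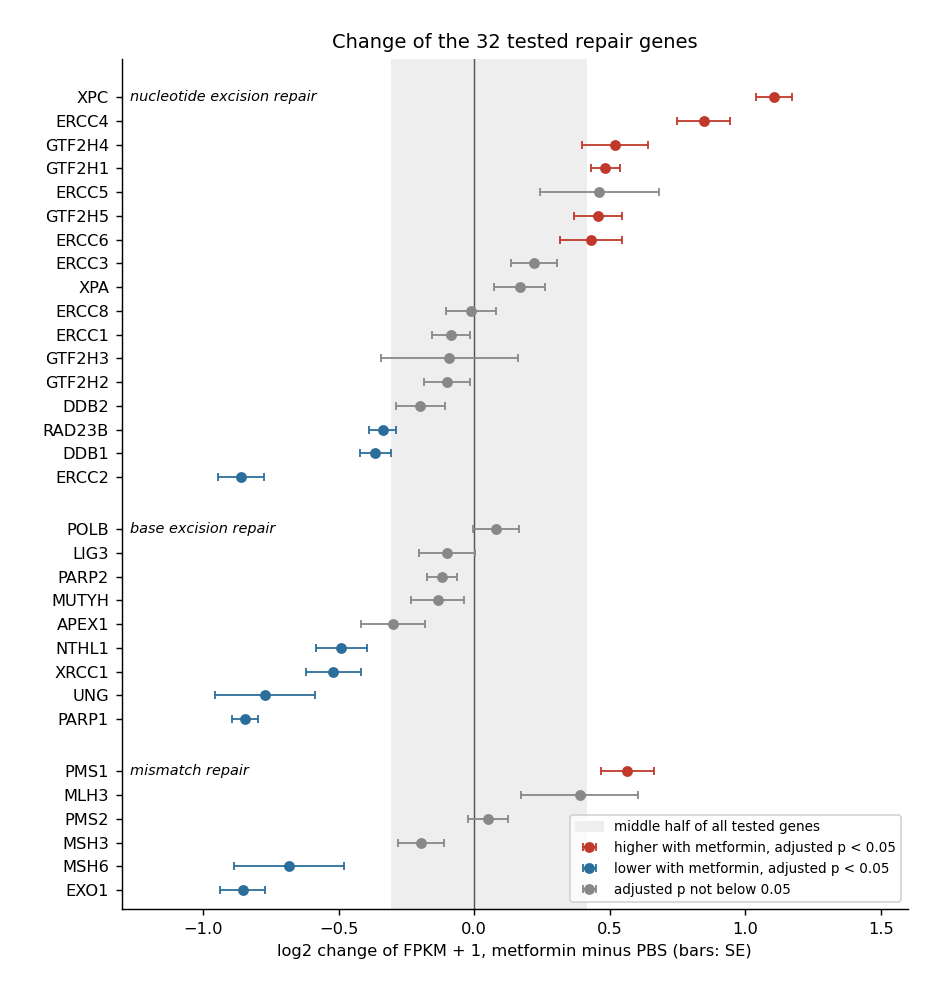
Points give the log2 change of FPKM + 1, metformin minus PBS, with bars for the standard error, for the 32 tested genes ordered by change within each pathway; the grey band runs from the lower to the upper quartile of all tested genes, -0.30 to 0.41. XPC at 1.11 lies farthest to the right, ERCC2, PARP1 and EXO1 lie near -0.85, and no base excision repair gene is coloured as higher.

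The recognition step of global genome repair was split. XPC, the sensor of helix distortion that starts repair outside transcribed strands (ENSG00000154767.14, chr3:14145147-14178783, GRCh38), had 11.3, 12.02 and 10.8 FPKM in metformin libraries, against 4.84, 4.63 and 4.74 FPKM in PBS libraries. Every metformin library stood above every PBS library, by 2.40-fold in the means, and the log2 change was 1.11 (SE 0.07, limma adjusted p = 2.72e-05). XPC shares 23.8% of its exon bases with AC093495.1 on the opposite strand, which averaged 0.859 FPKM with metformin and 0.400 FPKM with PBS. It shares 8.61% with AC090004.1, also opposite, at 0.211 FPKM with metformin and 0.774 FPKM with PBS. A further 6.63% overlaps LSM3 on the opposite strand, which averaged 8.52 FPKM with metformin and 8.09 FPKM with PBS. RAD23B, the partner that stabilises XPC, went the other way: it had 95.4, 102 and 96.8 FPKM with metformin against 128, 119 and 125 FPKM with PBS, 1.27-fold lower (log2 change -0.34, SE 0.05, limma adjusted p = 0.00122). The XPC to RAD23B ratio was 0.116 ± 0.00413 with metformin and 0.0382 ± 0.000646 with PBS (SD, n = 3 each), so XPC transcripts were scarcer than RAD23B transcripts in both groups and less so with metformin.

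The UV-damaged DNA binding complex, which finds photoproducts and hands them to XPC, was lower in its common subunit. DDB1, also the adaptor of CUL4 ubiquitin ligases, had 12.8, 11.8 and 12.3 FPKM with metformin against 15.7, 16.5 and 16.1 FPKM with PBS (1.31-fold lower, log2 change -0.36, SE 0.06, limma adjusted p = 0.00179). DDB2, the damage-binding subunit, was 2.31 ± 0.1997 FPKM with metformin and 2.80 ± 0.228 FPKM with PBS (SD, n = 3 each). Its groups did not overlap, but it did not pass the test (log2 change -0.20, limma adjusted p = 0.104). The DDB2 to DDB1 ratio, 0.188 ± 0.0214 with metformin and 0.174 ± 0.0166 with PBS, overlapped between groups (exact two-sided permutation test, p = 0.5).

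In transcription-coupled repair, which acts where RNA polymerase II stalls, ERCC6 passed the test and ERCC8 did not. ERCC6, the CSB translocase that recognises the stalled polymerase, had 2.57, 2.52 and 2.21 FPKM with metformin against 1.91, 1.35 and 1.40 FPKM with PBS. The groups did not overlap, and the means differed 1.56-fold (log2 change 0.43, SE 0.11, limma adjusted p = 0.0171). This call was lost when metformin library 1 or 2, or PBS library 2 or 3, was left out (limma adjusted p 0.0552, 0.052, 0.0523 and 0.053). ERCC8, the CSA subunit of a ubiquitin ligase acting beside CSB, averaged 2.30 ± 0.112 FPKM with metformin and 2.33 ± 0.259 FPKM with PBS, with overlapping groups (limma adjusted p = 0.919).

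TFIIH, the complex that opens the helix around the lesion and also starts transcription by RNA polymerase II, changed unevenly across its subunits. Of its 7 core subunits, 3 rose, 1 fell and 3 did not pass. GTF2H4, counted as higher, is uncertain for the reason given below. The share called, 57.1%, was near the 56.2% of all tested genes, so these counts show nothing particular to TFIIH. ERCC2, the XPD helicase (ENSG00000104884.14, chr19:45349837-45370918), had 3.37, 3.31 and 3.62 FPKM with metformin against 7.06, 6.39 and 7.75 FPKM with PBS. The highest metformin library was below the lowest PBS library, at 2.06-fold lower means (log2 change -0.86, SE 0.08, limma adjusted p = 0.000221). Its exons share 535 bases, 8.29% of their length, with KLC3 on the opposite strand, and KLC3 was also lower, at 3.18 ± 0.367 FPKM with metformin and 4.36 ± 0.124 FPKM with PBS. ERCC3, the XPB translocase that works next to XPD, had non-overlapping groups in the other direction, 9.16 ± 0.424 FPKM with metformin and 7.73 ± 0.803 FPKM with PBS, and did not pass (log2 change 0.22, limma adjusted p = 0.0623). The ERCC2 to ERCC3 ratio was 0.375 ± 0.0229 with metformin and 0.926 ± 0.182 with PBS.

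GTF2H1, the p62 scaffold of TFIIH (ENSG00000110768.11, chr11:18322295-18367044), had 13.8, 13.8 and 13.9 FPKM in metformin libraries against 9.77, 9.33 and 9.72 FPKM in PBS libraries. The libraries of each group lay close together and apart from the other group, 1.44-fold higher with metformin (log2 change 0.48, SE 0.05, limma adjusted p = 0.000364). GTF2H5, the small p8 subunit that stabilises the complex, had 2.28, 2.70 and 2.66 FPKM with metformin against 1.51, 1.57 and 1.66 FPKM with PBS (1.61-fold, log2 change 0.46, SE 0.09, limma adjusted p = 0.00483). GTF2H4, the p52 subunit that anchors XPB (ENSG00000213780.10, chr6:30908184-30914106), had 6.88, 6.47 and 7.59 FPKM with metformin against 4.95, 5.15 and 3.68 FPKM with PBS. Its log2 change of 0.52 (SE 0.12, limma adjusted p = 0.00997) is uncertain, because 1858 of its exon bases, 79.0%, are shared on the same strand with VARS2, a mitochondrial aminoacyl-tRNA synthetase gene that itself averaged 7.98 ± 0.598 FPKM with metformin and 5.10 ± 0.472 FPKM with PBS (log2 change 0.56, limma adjusted p = 0.00167).

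The remaining core subunits did not pass. GTF2H2, the p44 subunit, averaged 1.91 ± 0.120 FPKM with metformin and 2.12 ± 0.112 FPKM with PBS (limma adjusted p = 0.356). Its value is uncertain, since the near-identical copies GTF2H2C and GTF2H2B were listed at 2.34 ± 0.229 and 3.68 ± 0.279 FPKM with metformin against 2.22 ± 0.225 and 3.39 ± 0.0731 FPKM with PBS. GTF2H3, the p34 subunit, had 9.48, 10.4 and 9.73 FPKM with metformin against 13.2, 6.44 and 13.7 FPKM with PBS, so PBS library 2 stood below all other libraries. With all 6 libraries the log2 change was -0.09 (limma adjusted p = 0.777), and without PBS library 2 it was -0.41 (limma adjusted p = 0.00517). Without PBS library 1 or PBS library 3 it turned to 0.06 and 0.08.

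The kinase module of TFIIH, which phosphorylates RNA polymerase II and is released during repair, was divided as well. CDK7, its kinase, had 20.8, 20.01 and 17.04 FPKM with metformin against 12.1, 12.3 and 13.03 FPKM with PBS (1.55-fold, log2 change 0.59, SE 0.08, limma adjusted p = 0.00118). CCNH, its cyclin, had 5.33, 4.71 and 6.13 FPKM with metformin against 7.35, 6.37 and 7.18 FPKM with PBS (1.29-fold lower, log2 change -0.32, SE 0.10, limma adjusted p = 0.0318). MNAT1, the assembly factor, averaged 6.84 ± 1.15 FPKM with metformin and 8.75 ± 1.96 FPKM with PBS (limma adjusted p = 0.162). Kinase and cyclin transcripts were thus in a ratio of 3.64 ± 0.765 with metformin and 1.80 ± 0.143 with PBS.

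At the incision step ERCC4 passed the test, and ERCC1, ERCC5 and XPA did not. ERCC4, the XPF nuclease that cuts 5′ of the lesion (ENSG00000175595.14, chr16:13920157-13952345), had 4.33, 4.18 and 3.85 FPKM with metformin against 2.03, 1.55 and 1.99 FPKM with PBS. Metformin libraries were all above PBS libraries, by 2.22-fold in the means (log2 change 0.85, SE 0.10, limma adjusted p = 0.000459). ERCC1, the obligate partner of XPF, averaged 12.9 ± 0.504 FPKM with metformin and 13.8 ± 0.939 FPKM with PBS, with overlapping groups (log2 change -0.09, limma adjusted p = 0.33). ERCC1 shares 1593 exon bases, 28.6%, with CD3EAP on the opposite strand, and CD3EAP averaged 6.94 ± 1.78 FPKM with metformin and 6.45 ± 0.294 FPKM with PBS. The ERCC4 to ERCC1 ratio was 0.318 ± 0.0223 with metformin and 0.134 ± 0.0108 with PBS. XPA, the scaffold that holds the open complex, averaged 10.6 ± 1.21 FPKM with metformin and 9.34 ± 0.675 FPKM with PBS and did not pass (limma adjusted p = 0.169).

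ERCC5, the XPG nuclease that cuts 3′ of the lesion, could be read only together with its readthrough gene. ERCC5 had 9.22, 7.79 and 9.94 FPKM with metformin against 4.07, 8.14 and 7.12 FPKM with PBS, and PBS library 1 was the lowest. BIVM-ERCC5, an annotated fusion of the neighbouring BIVM gene with ERCC5, shares 5213 of the exon bases of ERCC5, 63.2%, on the same strand. It was listed at 0, 0.00405 and 0.0166 FPKM with metformin and at 4.41, 0 and 0.0102 FPKM with PBS, so it carried a sizeable value in PBS library 1 alone. The sum of both genes was 9.22, 7.80 and 9.96 FPKM with metformin against 8.48, 8.14 and 7.13 FPKM with PBS. For ERCC5 alone the difference in log2 was 0.46 ± 0.22 (SE; limma adjusted p = 0.117), the sum had 0.16 (limma adjusted p = 0.229), and ERCC5 without PBS library 1 had 0.21. The summed value was an alternative chosen after the data were seen.

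**Figure D3:**
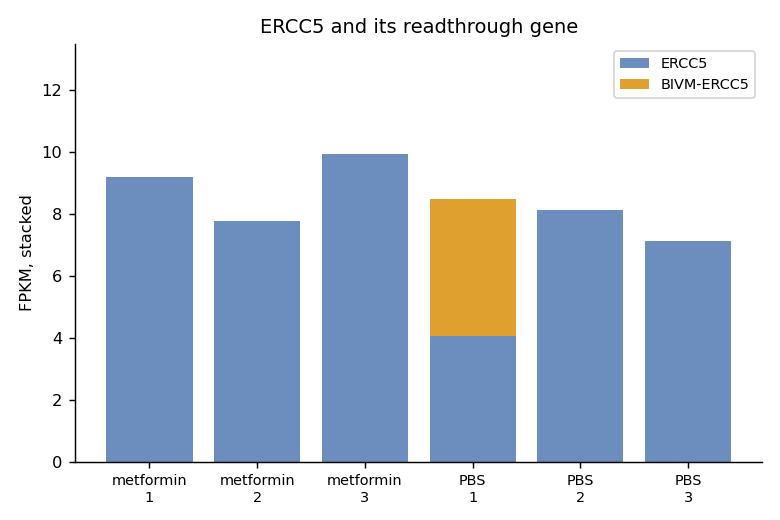
FPKM of ERCC5 and of the BIVM-ERCC5 readthrough gene, stacked for each of the 6 libraries, on a linear axis from 0. The readthrough value of 4.41 FPKM stands in PBS library 1, where ERCC5 is 4.07 FPKM, and the stacked sums of all 6 libraries lie between 7.13 and 9.96 FPKM.

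Of the other genes of nucleotide excision repair, 7 fell, 3 rose and 3 did not pass, among 13 tested (median log2 change -0.28). The shares lower and higher were 53.8% and 23.1%, against 25.2% and 31.0% of all tested genes. When 1 library was left out, 5 to 7 fell and 2 to 3 rose. TCEA1, the elongation factor TFIIS that restarts arrested RNA polymerase II, had 84.6, 81.6 and 84.0 FPKM with metformin against 28.1, 27.9 and 35.7 FPKM with PBS (2.73-fold, log2 change 1.43, limma adjusted p = 4.64e-05). ELOF1, an elongation factor of transcription-coupled repair, averaged 10.4 ± 1.13 FPKM with metformin and 6.63 ± 1.64 FPKM with PBS (log2 change 0.60, limma adjusted p = 0.02), a call lost without metformin library 1 or 3 (adjusted p 0.0658 and 0.0561). HMGN1, a nucleosome-binding protein linked to the same branch, fell to 27.7 ± 2.30 FPKM with metformin, against 40.5 ± 0.944 FPKM with PBS (log2 change -0.54, limma adjusted p = 0.00066). UVSSA, the stabiliser of CSB, averaged 0.716 ± 0.0377 FPKM with metformin and 0.731 ± 0.0604 FPKM with PBS and was too low for the test.

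Ratios between transcripts of partners were computed in each library for 10 pairs, which were chosen with the levels known. Since most held a member whose groups already did not overlap, their number shows nothing particular to partners. Apart from DDB2 to DDB1 the ratios did not overlap between groups, and for those 9 pairs the exact two-sided permutation test gave p = 0.1, the smallest that 3 against 3 allows, and 0.111 after Benjamini-Hochberg adjustment over the 10 pairs, so no pair could pass 0.05. The ratio of GTF2H1 to ERCC2 was 4.03 ± 0.177 with metformin and 1.37 ± 0.104 with PBS. These are ratios of transcript levels, and protein levels were not measured.

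**Figure D4:**
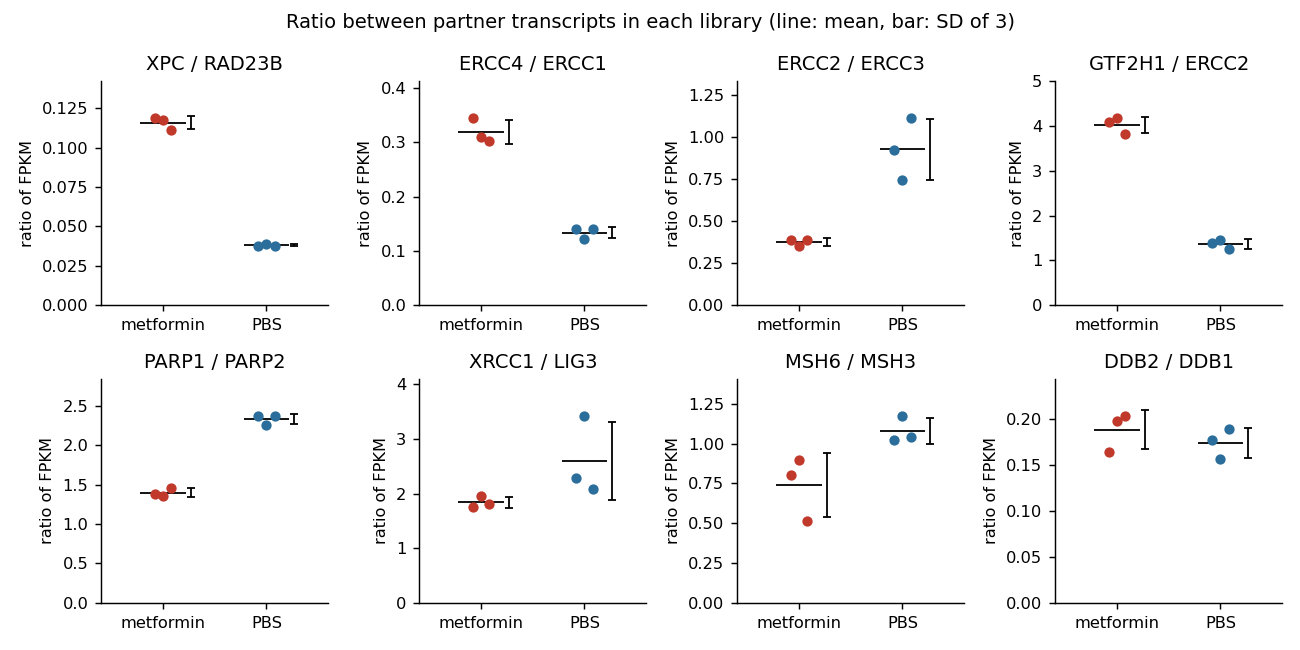
Ratio of FPKM between partner transcripts in each library, with linear axes from 0, a line for the mean and a bar for the SD of the 3 libraries of each group. Metformin points lie above PBS points for XPC to RAD23B, ERCC4 to ERCC1 and GTF2H1 to ERCC2, below them for ERCC2 to ERCC3, PARP1 to PARP2, XRCC1 to LIG3 and MSH6 to MSH3, and among them for DDB2 to DDB1.

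Base excision repair genes that passed the test were all lower with metformin. They act at 3 different steps: base removal (UNG, NTHL1), the sensing of strand breaks (PARP1) and the assembly of the gap-filling complex (XRCC1). The 4 of 9 tested genes that fell, 44.4%, stood beside a background of 25.2% of all tested genes called lower.

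Among the glycosylases, UNG, which removes uracil and the fluorouracil built into DNA (ENSG00000076248.10, chr12:109097574-109110992), had 9.99, 15.99 and 13.4 FPKM with metformin against 24.2, 25.9 and 18.7 FPKM with PBS. The libraries varied within each group but did not overlap, and the means were 1.75-fold lower with metformin (log2 change -0.77, SE 0.18, limma adjusted p = 0.0107). NTHL1, which removes oxidised pyrimidines (ENSG00000065057.7, chr16:2039815-2047866), had 4.45, 4.32 and 3.70 FPKM with metformin against 6.58, 6.55 and 5.59 FPKM with PBS (1.502-fold lower, log2 change -0.49, SE 0.09, limma adjusted p = 0.00433). TSC2, whose 5′ end overlaps that of NTHL1 on the opposite strand, was higher, at 7.998 ± 0.409 FPKM with metformin and 6.54 ± 0.288 FPKM with PBS (log2 change 0.25, limma adjusted p = 0.0169).

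Neither gene of the oxidised guanine pathway was called. OGG1, which cuts out 8-oxoguanine, had 1.07, 0.991 and 0.930 FPKM with metformin against 0.802, 0.923 and 0.721 FPKM with PBS. Its groups did not overlap, with metformin above, but the level lay below the minimum for the test, and without that minimum the log2 change was 0.14 (SE 0.10, limma adjusted p = 0.405). OGG1 shares exon bases on the opposite strand with CAMK1 (24.96%; 0.755 FPKM with metformin and 0.991 FPKM with PBS) and with TADA3 (4.08%), which was far above OGG1 in level and higher with metformin, at 12.6 ± 1.09 FPKM against 9.10 ± 0.108 FPKM with PBS (limma adjusted p = 0.00263). MUTYH, which removes adenine paired with 8-oxoguanine, averaged 2.21 ± 0.226 FPKM with metformin and 2.52 ± 0.243 FPKM with PBS (log2 change -0.13, limma adjusted p = 0.276). The overlapping TOE1 gene on the opposite strand fell to 5.37 ± 0.276 FPKM with metformin, against 8.91 ± 0.530 FPKM with PBS (limma adjusted p = 0.000397).

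Downstream of the glycosylases, APEX1 nicks the abasic site and POLB fills the gap. APEX1 had 72.0, 77.5 and 86.2 FPKM with metformin against 105, 106 and 81.2 FPKM with PBS. PBS library 3 lay among the metformin libraries, and APEX1 did not pass (log2 change -0.30, SE 0.12, limma adjusted p = 0.0675), although without PBS library 3 it did (log2 change -0.42, limma adjusted p = 0.00829). POLB had 2.49, 2.15 and 2.44 FPKM with metformin against 2.14, 2.13 and 2.26 FPKM with PBS, with overlapping groups (limma adjusted p = 0.447).

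XRCC1, the scaffold that brings polymerase and ligase to the nick (ENSG00000073050.11, chr19:43543040-43580473), had 5.56, 5.89 and 6.45 FPKM with metformin against 8.53, 10.4 and 8.14 FPKM with PBS. All metformin libraries were below all PBS libraries, at 1.51-fold lower means (log2 change -0.52, SE 0.10, limma adjusted p = 0.00486). LIG3, the ligase bound to XRCC1, averaged 3.25 ± 0.277 FPKM with metformin and 3.56 ± 0.459 FPKM with PBS and did not pass (limma adjusted p = 0.444). LIG1, the ligase of replication and of long-patch repair, had 1.87, 2.23 and 1.95 FPKM with metformin against 11.7, 9.90 and 11.5 FPKM with PBS, 5.47-fold lower (log2 change -1.99, SE 0.09, limma adjusted p = 9.24e-06). The order of the ligases was therefore different in the groups: the LIG3 to LIG1 ratio was 1.63 ± 0.243 with metformin, every library above 1, and 0.322 ± 0.0170 with PBS. FPKM is per transcript length, so this order compares genes; LIG3 shares 29.1% of its exon bases with RFFL on the opposite strand, which averaged 6.16 ± 0.441 FPKM with metformin and 4.52 ± 0.347 FPKM with PBS.

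PARP1 and PARP2 both bind strand breaks and mark them with ADP-ribose chains, and PARP1 makes most of that polymer. PARP1 (ENSG00000143799.12, chr1:226360691-226408079) had 33.3, 33.5 and 34.5 FPKM with metformin against 59.5, 61.4 and 63.7 FPKM with PBS. The groups were tight and far apart, 1.82-fold lower with metformin, and PARP1 had the smallest adjusted p of the members (log2 change -0.85, SE 0.05, limma adjusted p = 2.25e-05). PARP2 had 24.2, 24.8 and 23.6 FPKM with metformin against 25.1, 27.2 and 26.9 FPKM with PBS, without overlap but short of the threshold (log2 change -0.12, SE 0.05, limma adjusted p = 0.103). The PARP1 to PARP2 ratio was 1.39 ± 0.0563 with metformin and 2.33 ± 0.0622 with PBS.

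Of the other base excision repair genes, 6 fell, 1 rose and 7 did not pass, of 14 tested (median log2 change -0.17). When 1 library was left out 4 to 5 fell, and 2 rose without metformin library 2 or PBS library 2. HMGB1, a chromatin protein that is also a cofactor of the pathway, averaged 34.1 ± 3.89 FPKM with metformin and 58.2 ± 6.16 FPKM with PBS (log2 change -0.75, limma adjusted p = 0.00118). NEIL3, a glycosylase of proliferating cells, was 1.80-fold lower (log2 change -0.63, limma adjusted p = 0.0015). APTX, which releases AMP left by failed ligation, was the 1 that rose, to 11.8 ± 0.977 FPKM with metformin, against 7.54 ± 0.0823 FPKM with PBS (log2 change 0.58, limma adjusted p = 0.000628). NEIL1 and APLF were too low for the test.

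In mismatch repair EXO1 and MSH6 fell, PMS1 rose, and MSH3, PMS2 and MLH3 did not pass. EXO1, the exonuclease that removes the stretch holding the error (ENSG00000174371.16, chr1:241847967-241895148), had 5.40, 6.75 and 6.09 FPKM with metformin against 11.9, 11.9 and 11.5 FPKM with PBS. Its groups lay far apart, 1.93-fold lower with metformin (log2 change -0.85, SE 0.08, limma adjusted p = 0.000208). MSH6, which recognises base mismatches and short loops (ENSG00000116062.14, chr2:47695530-47810101), had 4.74, 6.45 and 3.11 FPKM with metformin against 7.90, 8.34 and 7.74 FPKM with PBS. All metformin libraries were lower, but they varied by 35.1% of their mean, and the log2 change was -0.68 (SE 0.20, limma adjusted p = 0.0252). The MSH6 call was lost when metformin library 1 or any PBS library was left out (limma adjusted p 0.0595 without metformin library 1, and 0.0603, 0.0709 and 0.0555 without PBS library 1, 2 and 3). MSH6 shares 16.2% of its exon bases with FBXO11 on the opposite strand, which was higher, at 8.64 ± 0.289 FPKM with metformin and 7.29 ± 0.490 FPKM with PBS.

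MSH3, which recognises larger insertion and deletion loops, had 5.89, 7.17 and 6.04 FPKM with metformin against 7.70, 7.11 and 7.43 FPKM with PBS. Metformin library 2 lay among the PBS libraries, and MSH3 did not pass (log2 change -0.19, SE 0.09, limma adjusted p = 0.0923), though it did when metformin library 2 was left out (log2 change -0.27, limma adjusted p = 0.027).

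The MutL partners, which are recruited by the mismatch-bound proteins, showed different changes. PMS1, a MutL subunit of uncertain role in human repair (ENSG00000064933.17, chr2:189784085-189877629), had 8.08, 8.73 and 7.97 FPKM with metformin against 4.62, 6.05 and 5.17 FPKM with PBS. Metformin libraries were all higher, by 1.56-fold in the means (log2 change 0.57, SE 0.10, limma adjusted p = 0.00261). PMS2, the endonuclease subunit of the main MutL complex, averaged 10.5 ± 0.571 FPKM with metformin and 10.1 ± 0.669 FPKM with PBS (log2 change 0.05, limma adjusted p = 0.579), and its level is uncertain because the near-identical copy PMS2CL was listed at 6.25 ± 0.255 FPKM with metformin and 6.45 ± 1.03 FPKM with PBS. MLH3, the endonuclease subunit of a minor MutL complex, had 2.43, 2.17 and 2.00 FPKM with metformin against 1.78, 2.03 and 0.722 FPKM with PBS. PBS library 3 was low, the groups overlapped, and MLH3 did not pass (log2 change 0.39, SE 0.22, limma adjusted p = 0.168).

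Short words bound by known factors were searched in the 250 bases before each start in RefSeq promoters (GRCh38.p14), which held 32 of the 33 genes. The E2F set, TTTCCCGC, TTTCGCGC, TTTGCCGC and TTTGGCGC on either strand, was present for 4 of 32 members, 12.5%, and for 3.40% of 27305 genes. The ATF/CREB word TGACGTCA was present for 3 of 32 members, 9.38%, and for 2.03% of all genes. The core CATGTC, part of p53 response elements, was present for PARP2 and for 7.82% of all genes. These background genes were not limited to the tested genes. The 32 members had 46 promoters, against 35116 promoters for the 27305 genes. The shares are therefore not like for like, and enrichment was not tested. Matches are printed for 5 genes to show them beside the transcript values, with the E2F or ATF/CREB letters in capitals, each read 5′ to 3′ on the strand of its gene. A match is a stretch of letters and does not show that a factor was bound.
UNG E2F word at chr12:109098100-109098125, plus strand: gggaggtttTTTGCCGCgaaaagacc
XPC E2F word at chr3:14178826-14178851, minus strand: cctgcgcccTTTCCCGCctctcgcga
PMS2 E2F word at chr7:6009133-6009158, minus strand: ggaagtattTTTGCCGCcccgcccgg
EXO1 ATF/CREB word at chr1:241848141-241848166, plus strand: gatacgcgtTGACGTCAcatcctctg
PARP2 ATF/CREB word at chr14:20343612-20343634, plus strand: gcgggttgaTGACGTCAgcgttc
PMS2 ATF/CREB word at chr7:6009194-6009219, minus strand: caggctcttTGACGTCAcgaagtcga

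The 4 genes with an E2F word changed differently: UNG fell, XPC rose, and MSH3 and PMS2 did not pass. The MSH3 match, which holds 2 E2F words, is not printed. Of the 3 genes with the ATF/CREB word EXO1 fell, and PARP2 and PMS2 did not pass.

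Enzymes of resynthesis and sealing that repair shares with replication were largely lower. In a list of 19 such genes 0 rose, 15 fell and 4 did not pass. The share lower was 78.9%, against 25.2% of all tested genes. The median log2 change was -0.81, against 0.06 over all tested genes. POLB and LIG3, which fill and seal gaps in base excision repair, were outside this list and did not pass (limma adjusted p = 0.447 and 0.444). UNG, NTHL1, PARP1 and XRCC1 were also outside this list and fell. The part of sharing with replication in these changes was not tested. PCNA, the sliding clamp, averaged 76.9 ± 5.77 FPKM with metformin and 188 ± 19.2 FPKM with PBS (2.45-fold lower, log2 change -1.28, limma adjusted p = 5.22e-05). POLE2, an accessory subunit of polymerase epsilon, was 3.47-fold lower (limma adjusted p = 0.000104), and RPA3, of the single-strand binding complex RPA, was 2.34-fold lower (limma adjusted p = 0.000304). RFC4, POLD4, POLE3 and POLE4 did not pass.

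A pair of further lists were read beside the members, to show which programmes moved in the same libraries. All 15 genes of an S-phase list fell (median log2 change -1.39), with RRM2 9.04-fold, MCM6 5.85-fold, TYMS 4.98-fold and TK1 4.68-fold lower with metformin. Of 10 p53-regulated genes of repair and arrest, 5 rose, 2 fell and 3 did not pass (median 0.36), the number lower being 1 without metformin library 1 or 3 or PBS library 1 or 2. SESN2, a stress-induced brake on mTORC1, was 9.10-fold higher, CDKN1A, the p21 inhibitor of cyclin-dependent kinases, 5.96-fold higher and GADD45A, a growth-arrest gene, 5.16-fold higher, while FDXR, a mitochondrial reductase, was 2.66-fold lower. XPC and DDB2 are also known p53 targets, and XPC rose while DDB2 did not pass. The part of the S-phase or p53-regulated genes in the changes of the repair members was not tested.

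**Figure D5:**
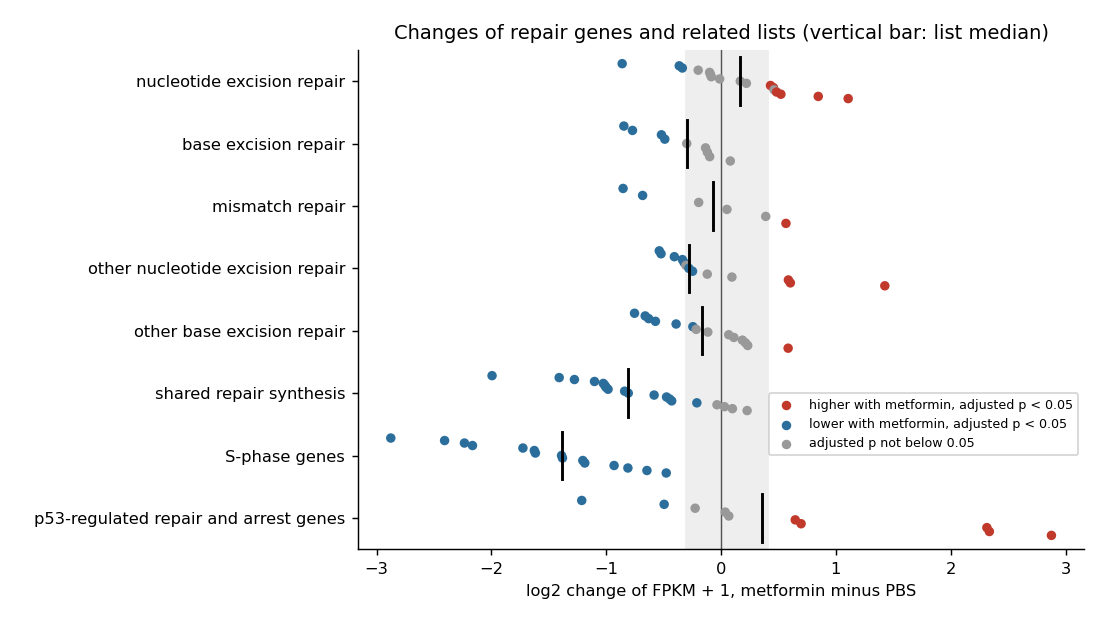
Log2 change of FPKM + 1, metformin minus PBS, for each tested gene of the 3 pathways and of 5 related lists, with a vertical bar at the median of each list and a grey band between the quartiles of all tested genes. The medians run from -1.39 for S-phase genes and -0.81 for shared repair synthesis to 0.17 for nucleotide excision repair and 0.36 for p53-regulated genes.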

How the data were processed

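The authors deposited 1 table of FPKM values per library, with 58243 genes each; per the submitters' processing notes the build was GRCh38. The aligner, quantifier, annotation and strand setting were not given in the sources used here. Libraries were prepared with a VAHTS mRNA-seq kit, per the labels' protocols. Ensembl identifiers were matched without version to GENCODE 29, which named 57980. Reads were not counted here: depth was estimated from the spacing of low FPKM values, too uneven to recover counts.

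Genes averaging at least 1 FPKM over the 6 libraries were tested on log2(FPKM + 1) with limma 3.58.1 (R 4.3.3; linear model and moderated variance with an intensity trend), with Benjamini-Hochberg adjustment over 13437 genes and a threshold of 0.05. The procedure was also run on simulated data, but no outcome is reported here and no result rests on that run. Folds are ratios of mean FPKM, and errors are SDs over 3 libraries. Exon overlaps with genes reaching 1 FPKM in a library came from BEDTools 2.31.1 and touched 16 members. Without strand, reads of overlapping genes cannot be told apart.

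All 33 members are named, and the 12 called ones with the largest change get every library's value. Of each other list up to 4 called genes with the largest change are named, with adjoining genes and copies; some that the rule would name are not reported here. Members and lists were chosen with earlier results of these data known. Promoter sequences are from RefSeq (GRCh38.p14). Alternatives changed the scaling, pseudocount, level filter, gene set, variance model, block and libraries.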

Additional observations from a re-analysis of the deposited data

How the results depend on the processing

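Over 18 alternatives and 1 added later, 14 of the 16 called members kept direction and call in all that tested them, ERCC6 and MSH6 lost the call in some, 0 called members reversed, and 8 of 16 uncalled members gained a call in at least 1. With a minimum mean of 5 FPKM, 4 members were higher, 3 of them in nucleotide excision repair, and 2401 of all genes, because fewer genes were tested. Quantile normalization gave 5 nucleotide excision repair genes lower, and ERCC6 was then at 0.29 (limma adjusted p = 0.0657). The number of mismatch repair genes lower was 1 with no level filter and 1 without both libraries numbered 3. It ran from 1 to 3 when 1 library was left out. In every setting with 1 lower, MSH6 had lost its call. Its limma adjusted p was 0.0642 with no level filter and 0.0538 without both libraries numbered 3. The leave-out with 3 lower was that of metformin library 2, where MSH3 gained a call (limma adjusted p = 0.027). Members called ran from 6 to 7 higher and 8 to 10 lower over the 1-library leave-outs. They were 7 higher and 12 lower with median-of-ratios scaling and 6 higher and 13 lower with quantile normalization. Of the uncalled genes, 4 changed sign: the log2 change of ERCC8 was 0.00985 with a fixed sum and -0.0661 to 0.0455 over the leave-outs; that of GTF2H3 was 0.0881 without both libraries numbered 3 and -0.41 to 0.0797 over the leave-outs. The log2 change of POLB was -0.0586 under quantile normalization, and that of PMS2 was -0.00421 with median-of-ratios scaling and -0.00948 without both libraries numbered 3. Same-numbered libraries did not deviate together (correlations -0.000355, 0.0304 and -0.0105), so the replicate numbers were not taken as pairs; with the replicate block 7 members were higher and 9 lower, as without it. Scalings moved the median of all genes by at most 0.074. Without counts, the counting error of low members could not be computed.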
